A study of Mus musculus with 16 samples.

Results

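The secretory gene families of the epididymis were read in RNA libraries of a fat pad that lies against that organ. They were the beta-defensins (Defb), the Kazal-type protease inhibitors (Spink), the whey acidic protein domain inhibitors (Wfdc), 6 epididymal lipocalins (Lcn), the cysteine-rich secretory proteins (Crisp), 3 epididymal cystatins (Cst), 4 ribonuclease A relatives (Rnase) and Akr1b7. A member was a protein-coding gene of these families with at least 10 reads summed over the 16 libraries, and 63 of 90 such symbols were members, in a table of 45777 genes. Of the 27 symbols left out, 20 had no read in any library. Members were thus chosen by their read total over all libraries, and the families were picked with their spread over the libraries known, so levels and shares are given as descriptions. By their known sites, 14 members are also made in other tissues (Akr1b7 among them), and the other 49 are called epididymal below. Among these 49, Cst8 and Cst12 are known from the testis too.

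The 4 groups of 4 male mice were OE at 20 weeks of age, Ctrl at 20 weeks, OE at 8 weeks and Ctrl at 8 weeks, written OE_20wk, Ctrl_20wk, OE_8wk and Ctrl_8wk with the replicate number of a library after the group. OE mice are A-LTA4HOE animals, which overexpress leukotriene A4 hydrolase in adipocytes according to the series title, and Ctrl mice are their controls. All 4 groups ate a 60 kcal% fat diet that began at 4 weeks of age, for 16 weeks in the older groups and for 4 weeks in the younger. The labels name neither the promoter that drives the transgene nor a strain or a batch, and nothing in them says that animals were pooled. RNA-seq was run on epididymal white fat, which is visceral.

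Total counts per library were 33626901 to 67576994, and 0 pairs of libraries held identical counts. Lta4h, the overexpressed gene, averaged 268 ± 20.7 CPM in OE_20wk and 88.5 ± 5.36 CPM in Ctrl_20wk, and 353 ± 78.0 CPM in OE_8wk and 89.6 ± 10.5 CPM in Ctrl_8wk (SD, n = 4 each, CPM being counts scaled to library size and by TMM). The 10 mature adipocyte genes listed, such as Fabp4, Lep and Cidec, had reads in every library, with sums of 9796 to 36820 CPM. Libraries OE_8wk 2, Ctrl_8wk 4 and Ctrl_8wk 3 stood apart from the rest in the members, so calls that rest on them are given with and without them. In bulk tissue, fewer cells of a type and less RNA per cell cannot be told apart.

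The epididymis is the coiled duct in which sperm leaving the testis mature, and it continues into the muscular vas deferens. Its epithelium secretes a different mixture of proteins in each segment: defensins that coat sperm and act against microbes, inhibitors that hold proteases in check, lipocalins that carry small hydrophobic molecules, and CRISP proteins that bind the sperm surface. Many of these genes depend on androgen, and most lie in clusters of related genes. Akr1b7, an aldo-keto reductase, is known in the mouse as the vas deferens protein, made there at a high level under androgen, and is also known from the adrenal cortex and from stromal cells of white fat. Its promoter is known in the mouse to carry an androgen response element.

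Promoters are shown for 4 members that peaked in OE_8wk 2 and Ctrl_8wk 4 (Akr1b7, Crisp1, Wfdc15b, Defb42) and for 2 that were nearly confined to Ctrl_8wk 3 (Defb22, Rnase9), because members of each set moved together across libraries. Each is the 250 bases before the start, 5′ to 3′ on the gene's strand, from RefSeq on GRCm38.p6, at chr6:34412112-34412361 (plus strand), chr17:40319208-40319457 (minus), chr2:164221664-164221913 (minus), chr14:63046741-63046990 (plus), chr2:152490139-152490388 (minus) and chr14:51041868-51042117 (minus). The Rnase9 window reaches into the RefSeq span of its gene (chr14:51038459-51041903), so its last bases lie inside that span. Capitals mark TGTTCT or its reverse complement AGAACA, the core of the androgen response element, searched on both strands.
Akr1b7: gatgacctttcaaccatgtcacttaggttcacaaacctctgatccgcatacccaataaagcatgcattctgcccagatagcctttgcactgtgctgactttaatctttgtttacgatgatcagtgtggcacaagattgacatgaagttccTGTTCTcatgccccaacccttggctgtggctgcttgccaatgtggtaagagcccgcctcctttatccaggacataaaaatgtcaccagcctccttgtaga
Crisp1: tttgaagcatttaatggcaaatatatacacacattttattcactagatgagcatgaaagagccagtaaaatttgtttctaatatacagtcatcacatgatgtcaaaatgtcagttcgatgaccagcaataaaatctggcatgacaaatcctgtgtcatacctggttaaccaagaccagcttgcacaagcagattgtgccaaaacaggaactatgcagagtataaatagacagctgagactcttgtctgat
Wfdc15b: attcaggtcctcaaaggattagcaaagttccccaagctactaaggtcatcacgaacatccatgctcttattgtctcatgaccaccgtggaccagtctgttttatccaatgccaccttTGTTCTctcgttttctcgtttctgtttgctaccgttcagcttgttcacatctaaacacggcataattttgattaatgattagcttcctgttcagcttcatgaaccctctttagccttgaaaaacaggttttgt
Defb42: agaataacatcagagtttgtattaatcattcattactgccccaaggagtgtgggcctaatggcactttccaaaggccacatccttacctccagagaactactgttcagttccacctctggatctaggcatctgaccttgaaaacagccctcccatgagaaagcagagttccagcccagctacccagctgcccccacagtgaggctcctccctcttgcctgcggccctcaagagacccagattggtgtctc
Defb22: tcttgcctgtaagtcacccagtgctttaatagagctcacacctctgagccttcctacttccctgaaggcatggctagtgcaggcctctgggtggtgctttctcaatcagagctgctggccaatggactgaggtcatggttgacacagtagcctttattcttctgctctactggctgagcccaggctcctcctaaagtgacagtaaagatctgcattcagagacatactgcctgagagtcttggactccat
Rnase9: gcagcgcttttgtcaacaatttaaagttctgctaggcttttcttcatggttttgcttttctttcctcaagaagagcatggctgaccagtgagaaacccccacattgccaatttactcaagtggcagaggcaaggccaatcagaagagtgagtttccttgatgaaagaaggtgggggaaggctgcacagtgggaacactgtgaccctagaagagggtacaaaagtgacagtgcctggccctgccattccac

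These letters stood at position -100 from the start in the Akr1b7 promoter and at -133 in that of Wfdc15b, and were not found in the other 4 windows shown. A window was at hand for 46 of 63 members, and 14 of them (30.4%) held the letters, against 4912 of 27025 genes (18.2%) with windows of the same length. By library pattern, the letters were in 6 of 11 members that peaked in OE_8wk 2 and Ctrl_8wk 4, in 2 of 9 that peaked in Ctrl_8wk 3 and in 6 of 26 others. The inverted repeat of both hexamers with a spacer of 3 bases was in 0 of 46 members and in 3 genes of the whole table. A match is no measured binding site.

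Reads of the 49 epididymal members summed to 2853 CPM in OE_8wk 2 and 4267 CPM in Ctrl_8wk 4. They were 0.310% of all reads in OE_8wk 2 (exact 95% interval 0.308 to 0.312%) and 0.467% in Ctrl_8wk 4 (0.466 to 0.469%), intervals that cover counting error only. Ctrl_8wk 3 came next with 277 CPM. The other 13 libraries held 0.352 to 29.3 CPM, with a median of 2.097, and among them OE_8wk 4 (29.3 CPM), Ctrl_8wk 2 (21.6 CPM) and OE_8wk 3 (8.37 CPM) were above the 8 libraries of 20-week mice, which held 0.352 to 4.58 CPM. OE_8wk 1 with 1.31 CPM and Ctrl_8wk 1 with 2.097 CPM lay within the range of those older mice. Reads thus appeared in every library, but 3 of 16 libraries held nearly all of them, 1 from an OE mouse and 2 from Ctrl mice.

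Akr1b7 (ID 11997, chr6:34412362-34423137) had 0.196 to 1.14 CPM in OE_20wk and 0.0 to 2.75 CPM in Ctrl_20wk. At 8 weeks it had 1.39, 4624, 4.88 and 25.8 CPM in OE_8wk 1 to 4 and 1.01, 17.2, 18.7 and 7715 CPM in Ctrl_8wk 1 to 4. Its 8630 TPM (a level per length) ranked 9 among all genes of OE_8wk 2, and its 14123 TPM ranked 5 in Ctrl_8wk 4, whereas it ranked 3311 to 22130 elsewhere. Crisp1 (ID 11571, chr17:40293758-40319207), a sperm-binding protein of the epididymis, had 0.718, 2415, 3.10 and 14.6 CPM in OE_8wk 1 to 4 and 1.43, 11.2, 138 and 3666 CPM in Ctrl_8wk 1 to 4. Per length, Crisp1 had 3972 TPM in OE_8wk 2 and 5913 TPM in Ctrl_8wk 4, below Akr1b7 in both. In Ctrl_8wk 3 the order was the other way, with 196 TPM of Crisp1 and 30.1 TPM of Akr1b7.

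**Figure D1:**
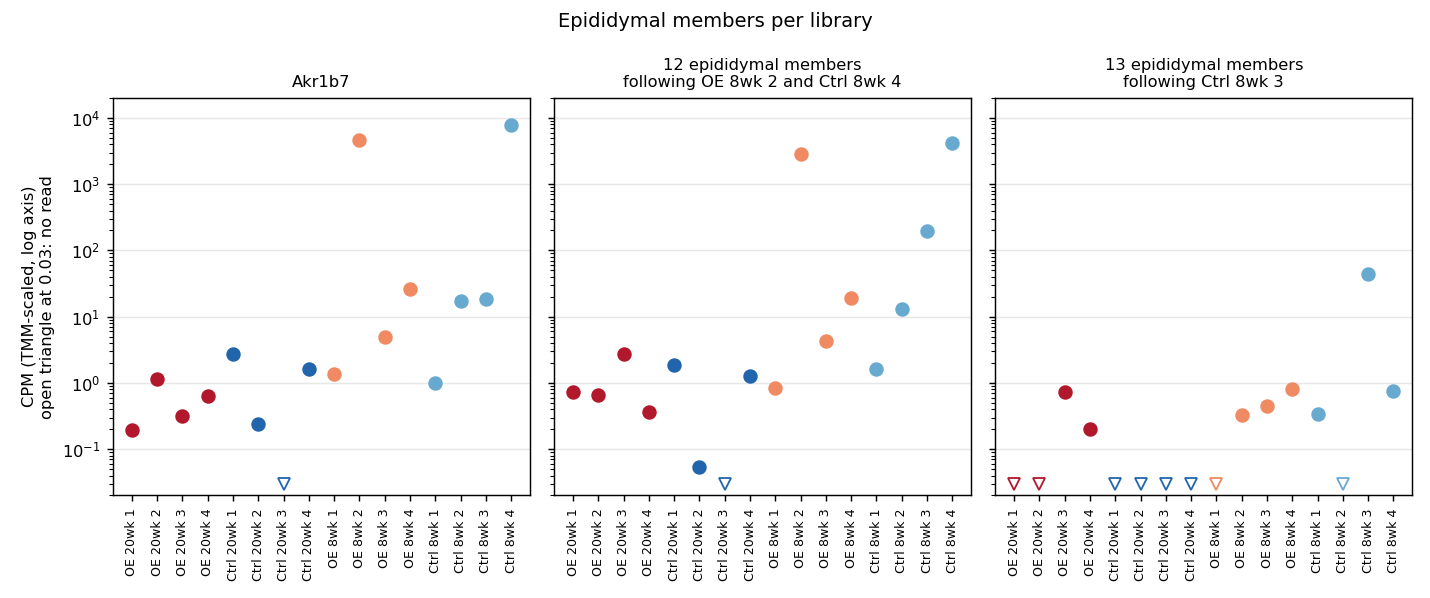
CPM per library on a log axis for Akr1b7 (left), the sum of the 12 epididymal members with at least 80% of their CPM in OE_8wk 2 and Ctrl_8wk 4 (middle) and the sum of the 13 with at least 80% in Ctrl_8wk 3 (right), with an open triangle where no read was found. Akr1b7 reached 4624 CPM in OE_8wk 2 and 7715 CPM in Ctrl_8wk 4 and at most 25.8 CPM elsewhere, and the sum of the 13 members at the right reached 43.7 CPM in Ctrl_8wk 3 and at most 0.807 CPM elsewhere.

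Libraries OE_8wk 2 and Ctrl_8wk 4 together held at least 80% of the CPM of 16 members, 12 of them epididymal, where 1.25% of 17696 protein-coding genes with at least 10 reads met the same condition. They were Akr1b7, Crisp1, Spink8, Defb42, Defb43, Wfdc15b, Spink11, Defb30, Defb2, Defb48, Lcn5, Spink4, Crisp3, Defb1, Defb13 and Lcn9. Akr1b7, Crisp1 and Spink8 made up 96.9% of all member CPM in OE_8wk 2 and 97.9% in Ctrl_8wk 4, and 51.1% in Ctrl_8wk 3.

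Among the inhibitors, Spink8 (chr9:109812203-109826628) had 280 CPM in OE_8wk 2 and 410 CPM in Ctrl_8wk 4, with 44.2 CPM in Ctrl_8wk 3 and at most 2.42 CPM elsewhere. Spink11 (on chromosome 18) was found in 2 libraries only, at 9.31 CPM in OE_8wk 2 and 8.62 CPM in Ctrl_8wk 4. Wfdc15b (chr2:164214454-164221663) had 22.3 CPM in OE_8wk 2 and 30.5 CPM in Ctrl_8wk 4, then 7.30 CPM in Ctrl_8wk 3 and at most 1.22 CPM elsewhere. All 3 inhibitors were thus high in the same libraries, and Ctrl_8wk 3 held Spink8 and Wfdc15b but no read of Spink11.

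Among the defensins, Defb42 (chr14:63046991-63048606) had 71.8 CPM in OE_8wk 2 and 72.7 CPM in Ctrl_8wk 4, against at most 2.02 CPM elsewhere. Its neighbour Defb30 had 5.76 CPM in OE_8wk 2 and 4.97 CPM in Ctrl_8wk 4. RefSeq places Defb30 apart from Defb42 (chr14:63034087-63037846), whereas GENCODE extends it over Defb42 on the opposite strand (chr14:63034087-63049960), and which annotation was counted is not given in the sources used here. Defb43 (chr14:63011771-63018088) had 27.7 CPM in OE_8wk 2 and 42.4 CPM in Ctrl_8wk 4. Of the 5 members in this chromosome 14 cluster (chr14:62977524-63048606), 4 were high in these libraries, Defb48 being the fourth, and Defb47 was not. Lcn5, an epididymal lipocalin that binds retinoic acid, had 1.16 CPM in OE_8wk 2 and 1.68 CPM in Ctrl_8wk 4 and was listed with reads in 1 other library, OE_8wk 4, at 0.0437 CPM.

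The composition of the members in these libraries was compared by the ratio of their CPM. For the 19 epididymal members (with Akr1b7) that had at least 20 reads in both, OE_8wk 2 over Ctrl_8wk 4 was 0.417 to 1.74 with a median of 0.686, and 14 of 19 were below 1. Akr1b7 (0.599, exact 95% interval 0.596 to 0.603), Crisp1 (0.659, 0.654 to 0.664), Spink8 (0.684, 0.668 to 0.699) and Defb43 (0.652, 0.607 to 0.6996) lay between 0.599 and 0.684, although the intervals of Akr1b7 and Crisp1 do not overlap. Defb42 (0.987, 0.942 to 1.03) and Spink11 (1.08, 0.945 to 1.23) were nearer to 1, and Defb28 (0.424, 0.342 to 0.521) and Defb2 (0.565, 0.455 to 0.699) were lower. With 1 library on each side, these intervals show a difference between these libraries and not between OE and Ctrl mice.

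**Figure D2:**
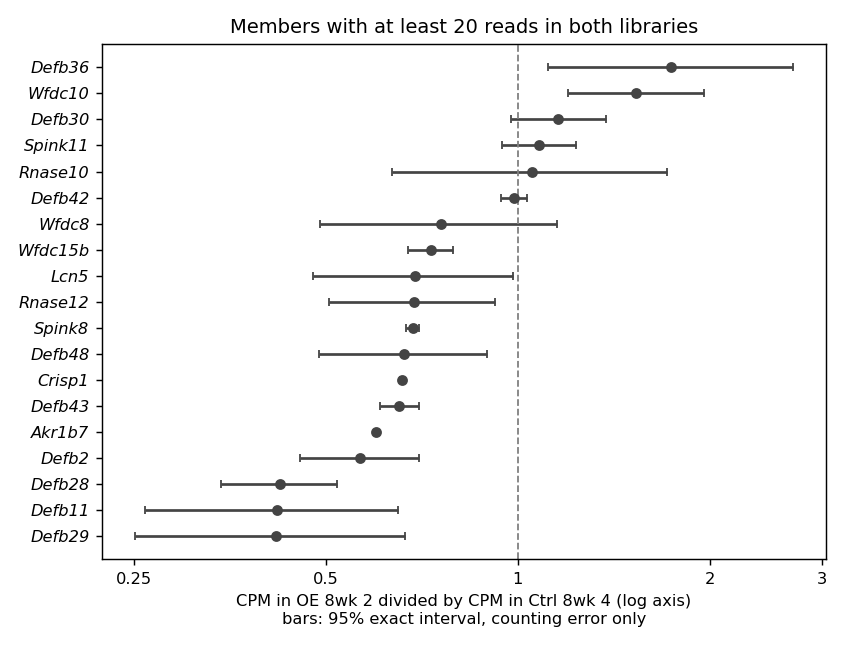
Ratio of CPM in OE_8wk 2 to CPM in Ctrl_8wk 4 (log axis) for 19 members with at least 20 reads in both libraries, with exact 95% intervals for counting error and a dashed line at 1. Most points lie left of the line, around the median of 0.686, with Defb36 at 1.74 and Defb29 at 0.417 as the extremes.

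Ctrl_8wk 3 held other members. At least 80% of the CPM of 13 members was in this library, against 0.164% of 17696 protein-coding genes: Wfdc16, Wfdc13, Defb22, Spink10, Rnase9, Defb37, Defb38, Rnase11, Crisp4, Wfdc9, Defb26, Defb40 and Defb39, all epididymal. Wfdc13 (chr2:164685107-164687706) had 10.8 CPM in Ctrl_8wk 3 and no read in the other 15 libraries. Defb22 (chr2:152485666-152490138), a defensin that coats mouse sperm, had 8.77 CPM there and 0.0785 CPM in OE_20wk 3, its only other library. Wfdc16 had 9.68 CPM in Ctrl_8wk 3 and at most 0.677 CPM elsewhere, and Rnase9, a ribonuclease A relative of the epididymis, had 2.83 CPM and at most 0.0946 CPM. OE_8wk 2 and Ctrl_8wk 4 thus lacked or nearly lacked these members, although their members in all were far more abundant.

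OE_8wk 2 was the top library of 4 members (6.35%, where 5.81% of protein-coding genes had it on top), Ctrl_8wk 3 of 30 members (47.6%, where 5.97% did) and Ctrl_8wk 4 of 21 members (33.3%, where 14.7% did). Members of 1 family on the same chromosome did not all share a library. Of 10 defensins on chromosome 8, 4 (Defb37 to Defb40) had at least 80% of their CPM in Ctrl_8wk 3. Another 3 (Defb1, Defb2 and Defb13) had it in OE_8wk 2 and Ctrl_8wk 4, and 3 (Defb9, Defb11 and Defb14) in neither. These patterns lay in separate groups of genes. Defb37 to Defb40 lie with Defb14 at chr8:18974914-19195309, whereas Defb1, Defb2 and Defb13 lie with Defb9 and Defb11 at chr8:21776555-21948622. On chromosome 2, 7 of 9 defensins and 8 of 12 Wfdc members were in neither. Both CRISP genes that are epididymal differed too: Crisp1 on chromosome 17 was highest in Ctrl_8wk 4, while Crisp4 on chromosome 1 was found in Ctrl_8wk 3 alone, at 0.816 CPM. Defb28, Wfdc10 and Rnase12 were present in all 3 libraries, at 2.99, 3.23 and 1.67 CPM in OE_8wk 2, at 8.91, 5.80 and 2.72 CPM in Ctrl_8wk 3, where each was highest, and at 7.05, 2.11 and 2.43 CPM in Ctrl_8wk 4.

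**Figure D3:**
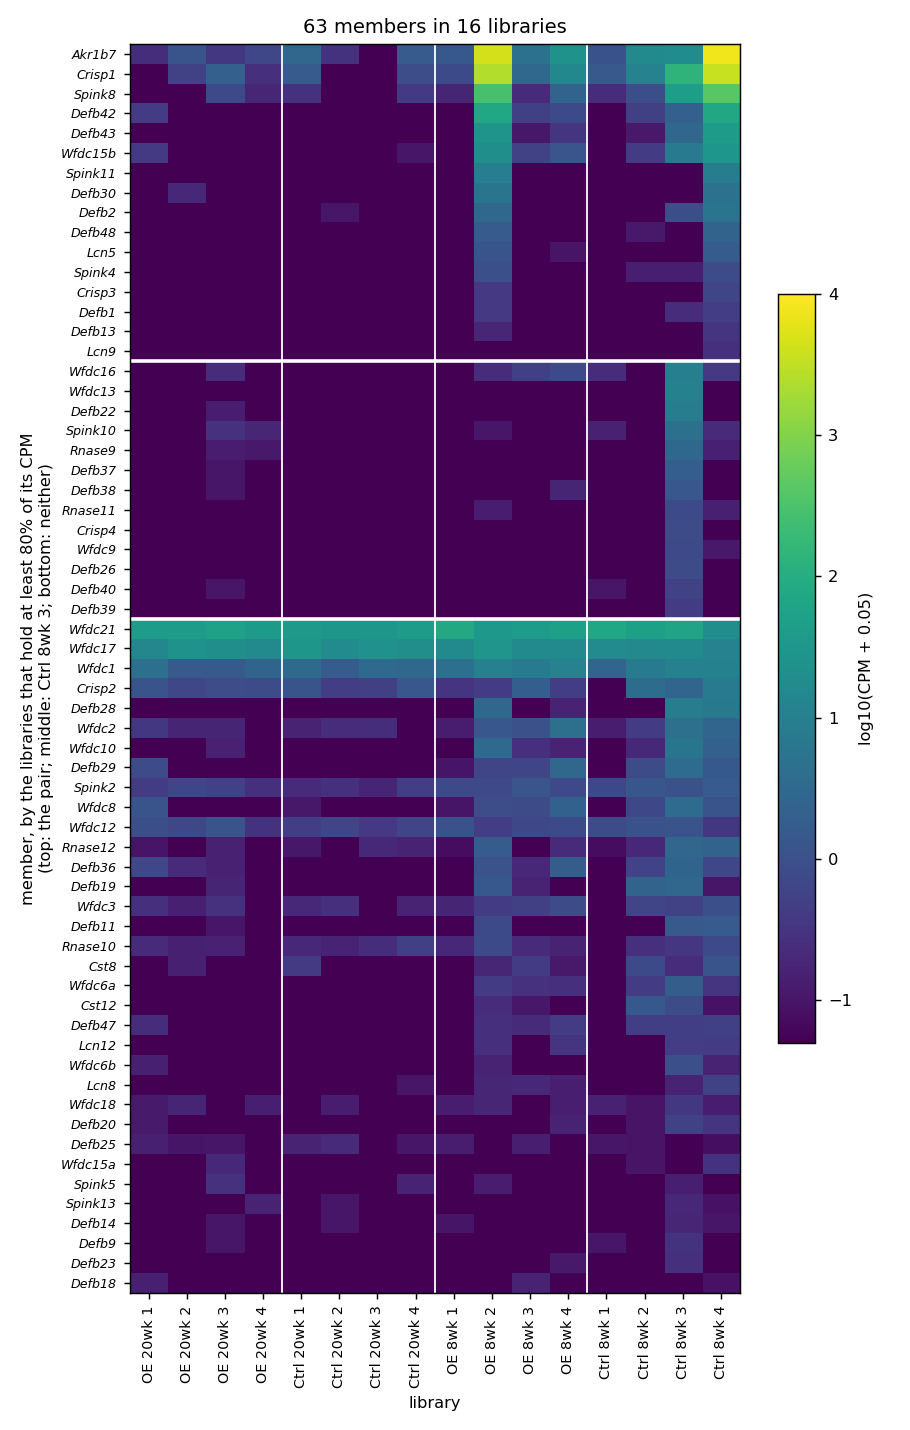
Heat map of log10(CPM + 0.05) for the 63 members (rows) in 16 libraries (columns), split into the 16 members that follow OE_8wk 2 and Ctrl_8wk 4, the 13 that follow Ctrl_8wk 3 and the other 34. The upper and middle blocks light up in different libraries, and Wfdc21, Wfdc17, Wfdc1, Spink2 and Wfdc12 are found in all 16.

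Of the other 34 members, 24 are epididymal. Wfdc8, Defb29, Defb36 and Wfdc6a, all on chromosome 2, were spread over more libraries: their summed level was 2.55 CPM in OE_20wk 1 and at most 0.173 CPM in the other 7 libraries of that age. At 8 weeks it was 0.0991, 2.93, 1.74 and 6.90 CPM in OE_8wk 1 to 4 and 0.0, 2.35, 11.1 and 3.46 CPM in Ctrl_8wk 1 to 4. The sum was thus higher in OE_8wk 4 than in OE_8wk 2 or Ctrl_8wk 4, as were Wfdc8, Defb29 and Defb36, but not Wfdc6a, which had 0.377 CPM in OE_8wk 2, 0.218 CPM in OE_8wk 4 and 0.270 CPM in Ctrl_8wk 4. Defb19, Cst8 and Cst12, the cystatins being CRES-type proteins of the epididymis and testis, had a summed 1.70 CPM in OE_8wk 2, 4.53 CPM in Ctrl_8wk 2, 3.78 CPM in Ctrl_8wk 3 and 1.24 CPM in Ctrl_8wk 4, and at most 0.562 CPM elsewhere. The remaining epididymal members, Wfdc3, Defb11, Rnase10, Defb47, Lcn12, Wfdc6b, Lcn8, Defb20, Defb25, Wfdc15a, Spink13, Defb9, Defb23 and Defb18, reached at most 1.61 CPM in any library. At the entry limit, Defb9, Defb23 and Defb18 had 15, 12 and 11 reads in all, and Spink1, Defb33 and Defb6 just outside it had 8, 7 and 4.

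Markers of other tissues moved with some of these members, and their part in the levels was not tested. The smooth muscle list (12 genes, 11 or 12 with reads per library) summed to 484 to 807 CPM in OE_20wk and 351 to 583 CPM in Ctrl_20wk, and to 953 to 5259 CPM in OE_8wk and 932 to 5356 CPM in Ctrl_8wk. The maxima were OE_8wk 2 and Ctrl_8wk 4, where Myh11, smooth muscle myosin, had 1470 and 1359 CPM, against at most 162.5 CPM elsewhere. Ctrl_8wk 3, with 932 CPM, had the lowest sum of the 8-week libraries, but not the lowest level of every gene. Acta2, at 247 CPM, was lowest there for that age. Cnn1 had 19.3 CPM in Ctrl_8wk 3, 1.04 CPM in Ctrl_8wk 1 and 1.59 CPM in OE_8wk 1. It had 18.1 to 20.8 CPM in Ctrl_8wk 2, OE_8wk 3 and OE_8wk 4. The list of the distal duct and vas deferens (7 genes) holds Akr1b7 and Crisp1, which made up most of its sum. Its 5 other genes summed to 335.5 CPM in OE_8wk 2, 532 CPM in Ctrl_8wk 4 and 26.1 to 115 CPM elsewhere, mostly through Cd52, which leukocytes also express. The list of the proximal duct holds 17 genes, 8 of them members. Without its members it summed to 46.3 CPM in OE_8wk 2 and 56.5 CPM in Ctrl_8wk 4. The other 14 libraries had 38.2 to 63.2 CPM. Dusp6 made up most of this sum, with 41.8 CPM in OE_8wk 2 and 46.4 CPM in Ctrl_8wk 4. Lcn6 and Lcn10 of this list were at 0 in all 16 libraries and Lcn9 in 15. Of its 15 genes with reads, 5 had OE_8wk 2 and Ctrl_8wk 4 as their highest libraries: Lcn5, Defb42, Rnase10, Gpx5 and Ros1. Gpx5, which is no member, had 0.135 CPM in OE_8wk 2, 0.446 CPM in Ctrl_8wk 4 and no read elsewhere.

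The general epithelium list (14 genes, 6 to 14 with reads per library) summed to 8.72 to 78.7 CPM in OE_20wk and 18.5 to 43.5 CPM in Ctrl_20wk, and to 62.9 to 399 CPM in OE_8wk and 29.1 to 544 CPM in Ctrl_8wk. The highest sums were 399 CPM in OE_8wk 2 and 322 CPM in OE_8wk 4, and 349 CPM in Ctrl_8wk 3 and 544 CPM in Ctrl_8wk 4. Of its 14 genes, 9 had OE_8wk 2 and Ctrl_8wk 4 as their highest libraries, as Akr1b7 did, and Pax8, a transcription factor of duct epithelia, had 33.3 CPM in OE_8wk 2 and 47.4 CPM in Ctrl_8wk 4. Other genes of the list had another order. Cdh16, a cadherin of kidney and duct epithelia, had 21.3 CPM in OE_8wk 2 and 45 CPM in OE_8wk 4, and 45.6 CPM in Ctrl_8wk 3 and 28.4 CPM in Ctrl_8wk 4. OE_20wk 1, the 20-week library with the most of Wfdc8, Defb29 and Defb36, also had the highest Cdh16 of that age, 12.9 CPM.

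The sperm and testis list (19 genes, 7 to 19 with reads) summed to 54.7 to 67.4 CPM in OE_20wk and 53.9 to 62.1 CPM in Ctrl_20wk, and to 48.5 to 105 CPM in OE_8wk and 44.8 to 303 CPM in Ctrl_8wk. Prm2, a protamine of sperm chromatin, had 4.98 CPM in OE_8wk 2 and 8.84 CPM in OE_8wk 3. It had 14.3 CPM in Ctrl_8wk 2, 19.2 CPM in Ctrl_8wk 3 and 57.0 CPM in Ctrl_8wk 4, and at most 3.16 CPM elsewhere. Insl3, a hormone of Leydig cells, had 10.5 CPM in OE_8wk 2, 44.9 CPM in Ctrl_8wk 2 and 26.6 CPM in Ctrl_8wk 3, and at most 1.28 CPM elsewhere. These 3 libraries were also the highest in Cst12 and Defb19, but not in Cst8, which had 0.135 CPM in OE_8wk 2, 0.734 CPM in Ctrl_8wk 2, 0.181 CPM in Ctrl_8wk 3 and 1.15 CPM, its highest value, in Ctrl_8wk 4.

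Of 16 seminal vesicle and prostate genes in the table, at most 7 had reads in a library, and Pbsn and Svs4 were at 0 in all, with sums of 0.327 to 8.48 CPM. The basal cell list (6 genes, 3 to 6 with reads) summed to 169 to 233 CPM in OE_20wk and 175 to 197 CPM in Ctrl_20wk, and to 214 to 385 CPM in OE_8wk and 230.4 to 383 CPM in Ctrl_8wk, mostly through Itga6. At 8 weeks its lowest sums were those of OE_8wk 2 and Ctrl_8wk 4. Within it, 2 of 6 genes, Krt5 and Trp63, were highest in these libraries, Krt5 at 8.58 CPM in OE_8wk 2 and 12.0 CPM in Ctrl_8wk 4 and at most 0.476 CPM elsewhere. The clear cell list (7 genes) summed to 148 to 470 CPM at 20 weeks and to 10.4 to 73.3 CPM at 8 weeks, mostly through Atp6v0d2, and its defining gene Atp6v1b1 had reads in Ctrl_8wk 4 alone. The mesothelium list (9 genes) summed to 49.9 to 412 CPM and was not highest in OE_8wk 2, Ctrl_8wk 3 or Ctrl_8wk 4. The macrophage list (12 genes) summed to 4210 to 11410 CPM at 20 weeks and 1141 to 2572 CPM at 8 weeks.

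**Figure D4:**
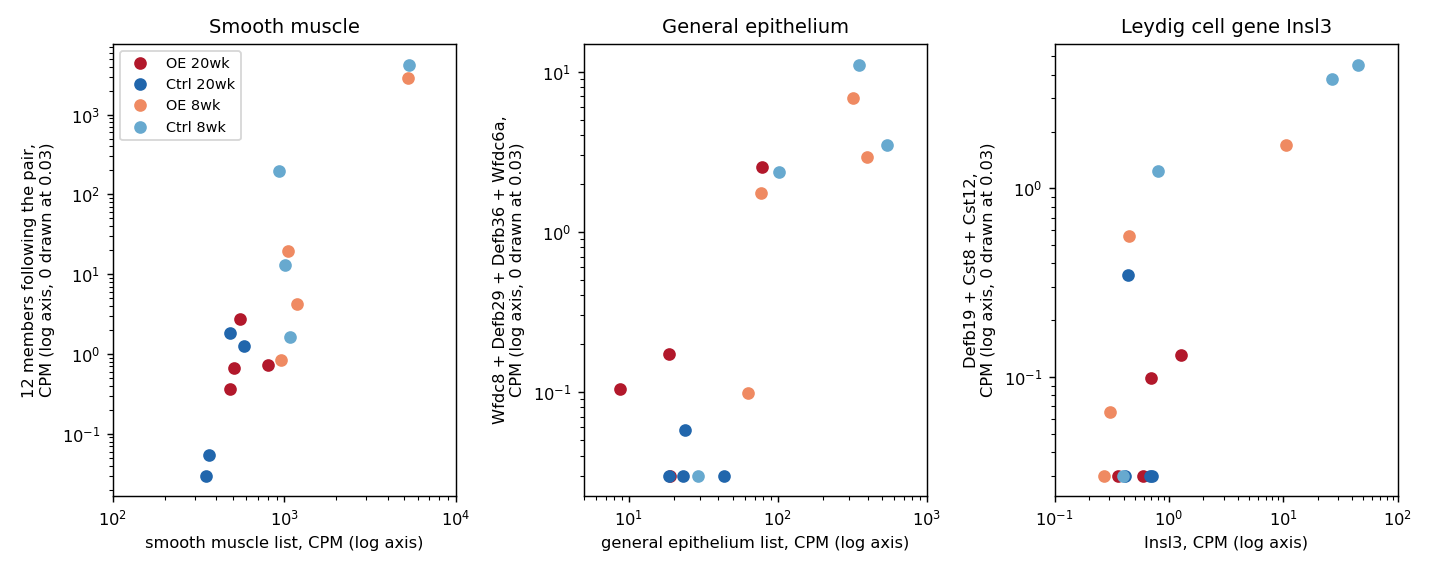
Summed CPM of member sets against CPM of other tissue genes, 1 point per library, both axes logarithmic, with 0 drawn at 0.03. OE_8wk 2 and Ctrl_8wk 4 lie at the upper right in the smooth muscle panel, OE_8wk 4 and Ctrl_8wk 3 are uppermost in the general epithelium panel, and Ctrl_8wk 2 and Ctrl_8wk 3 are uppermost in the Insl3 panel.

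Genes outside the families whose pattern was most like that of Akr1b7 were ranked by the lower of OE_8wk 2 and Ctrl_8wk 4 over the highest of the other 14 libraries, 0.5 CPM being added to each. Of 11516 genes, 29 reached a ratio of 10, led by Ptgs2, Gm9573, Mfsd2a, Pcp4, Sost, Serpina1f, Cited1, Slc28a3, Ckm and Anxa13. Ptgs2, cyclooxygenase-2, had 684 CPM in OE_8wk 2 and 958 CPM in Ctrl_8wk 4 and at most 3.80 CPM elsewhere. Serpina1f, a serpin of the epididymis, had 555 CPM in OE_8wk 2, 816 CPM in Ctrl_8wk 4 and at most 12.7 CPM elsewhere. The list of 36 other epididymal genes was dominated by Mfge8 and Npc2, which fat also expresses, and its sum of 1309 to 2697 CPM did not single out these libraries. Of its 36 genes, 24 had reads in any library, and 5 had OE_8wk 2 and Ctrl_8wk 4 as their highest libraries. Others peaked elsewhere. Ces5a, a carboxylesterase of the epididymis, had 2.50 CPM in OE_8wk 2, 29.0 CPM in Ctrl_8wk 3 and 3.46 CPM in Ctrl_8wk 4. Adam7, a membrane protein of epididymal epithelium, had 24.0 CPM in Ctrl_8wk 3 and at most 7.21 CPM elsewhere. Spag11b was highest in OE_8wk 3, at 0.739 CPM, and Ggt1 in OE_8wk 4, at 39.1 CPM.

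Of the members known from other tissues, 5 had reads in all 16 libraries: Wfdc21, Wfdc17, Wfdc1, Spink2 and Wfdc12. Wfdc21, an adipocyte and immune product in mice, averaged 44.2 ± 7.31 CPM in OE_20wk and 35.1 ± 5.07 CPM in Ctrl_20wk, and 50.8 ± 19.2 CPM in OE_8wk and 50.03 ± 21.9 CPM in Ctrl_8wk (SD, n = 4 each). Its lowest value of all, 20.0 CPM, was in Ctrl_8wk 4, the library with the most epididymal reads. Crisp2, which is made in the testis, was highest in Ctrl_8wk 4 (7.97 CPM), Ctrl_8wk 2 (3.76 CPM) and Ctrl_8wk 3 (2.67 CPM), the libraries highest in Prm2.

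**Figure D5:**
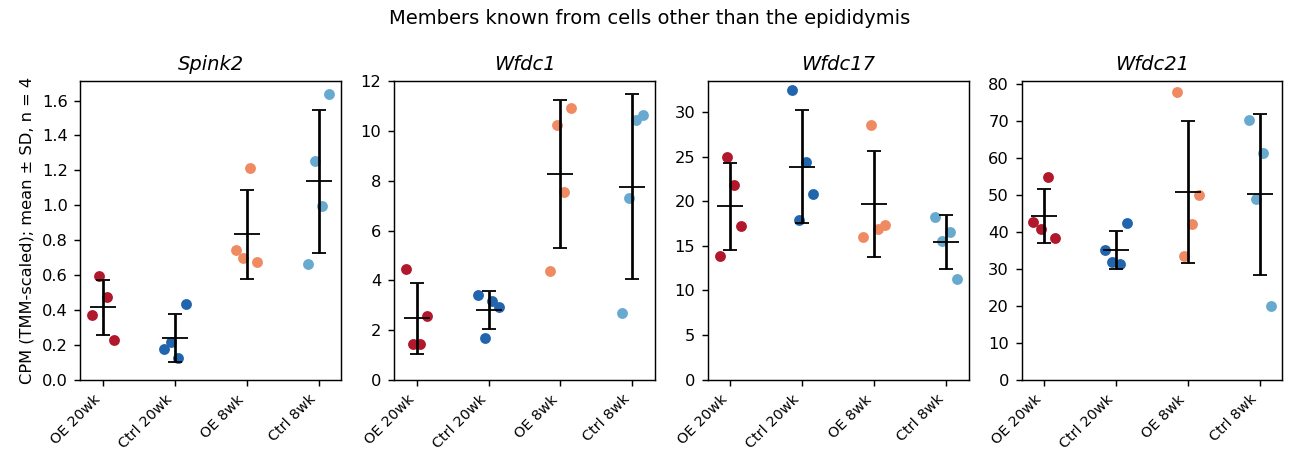
CPM of Spink2, Wfdc1, Wfdc17 and Wfdc21 in the 4 groups, 1 point per library with mean ± SD (n = 4 each). Spink2 of both 20-week groups (at most 0.593 CPM) lies below both 8-week groups (at least 0.664 CPM), whereas the groups overlap for Wfdc21.

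Of the 63 members, 22 passed the filter on low counts and entered the fit over 19189 genes. Most passed through the 8-week libraries in which they were high, so counts among these 22 describe them and are no support for a change in the families. The comparison of OE with Ctrl asks what extra LTA4H in adipocytes does to the fat pad. At 8 weeks, 0 members were called higher and 0 lower in OE (adjusted p under 0.05), where 0.0208% of all genes were higher and 0.0% lower. At an unadjusted p under 0.05 stood 424 genes and 1 member, Crisp2, which was chosen after its values were seen, with a log2 fold change of -2.31 ± 1.02. Akr1b7 differed by a log2 fold change of -0.74 ± 2.17, Crisp1 by -0.65 ± 2.05 and Spink8 by -0.69 ± 1.84 (SE), each with an adjusted p of 1. These errors are larger than the differences, and 1 library of each group held most of the reads. Without Ctrl_8wk 4 the log2 fold changes were 6.56, 3.595 and 2.23, with adjusted p of 0.775, 0.816 and 0.875. The median log2 fold change was -0.48 over the 22 members and 0.0018 over all genes.

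At 20 weeks, 0 members were called higher and 0 lower in OE, where 0.0261% of all genes were higher and 0.0% lower. At an unadjusted p under 0.05 stood 762 genes and 1 member, Defb36, with 0.613, 0.173, 0.105 and 0.0 CPM in OE_20wk 1 to 4 and no read in Ctrl_20wk. Its adjusted p was 0.996. Akr1b7 had 0.196, 1.14, 0.314 and 0.631 CPM in OE_20wk and 2.75, 0.244, 0.0 and 1.63 CPM in Ctrl_20wk, so the groups overlapped. The median log2 fold change was 0.28 over the 22 members and 0.02 over all genes. The change of the OE effect with age was called in 0 members in either direction, where 0.0% of genes were called and 650 genes and 0 members stood at an unadjusted p under 0.05. DESeq2 and limma voom also called 0 members in these 3 comparisons. DESeq2 gave no adjusted p for Akr1b7 and Crisp1 in OE_8wk against Ctrl_8wk, so it could not have called them there.

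The next comparison asks how the fat pad differs between 20 and 8 weeks of age. The older mice had eaten the diet for 16 weeks and the younger for 4 weeks. Age and diet duration thus cannot be told apart in any comparison of 20 with 8 weeks. Called lower in Ctrl_20wk than in Ctrl_8wk were 14 of the 22 members, where 21.3% of all genes were lower, and 1 was called higher, where 19.6% were and 40.9% were called in either direction. The median log2 fold change was -6.55 over the 22 members and -0.05 over all genes. Akr1b7 fell by 10.73 ± 3.33 on the log2 scale (adjusted p = 0.0205), Crisp1 fell by 10.63 ± 3.18 (0.0174), Spink8 fell by 9.61 ± 2.997 (0.0211) and Wfdc15b fell by 9.18 ± 2.74 (0.0172). For all 4 the groups overlapped, as Akr1b7 reached 2.75 CPM in Ctrl_20wk and had 1.01 CPM in Ctrl_8wk 1. Another 6 called members, Defb29, Wfdc6a, Defb36, Wfdc16, Defb42 and Defb47, had no read in Ctrl_20wk. Against a floor of 3 reads over that group and with library totals, Defb42 was at least 1310-fold lower, Wfdc16 at least 109-fold and Defb47, the least of these, at least 17.1-fold. Ctrl_8wk 4 held 5381 of the 5491 Defb42 reads of Ctrl_8wk, and Ctrl_8wk 3 held 427 of the 458 Wfdc16 reads. These bounds were not computed without those libraries. Each of the 6 members also lacked reads in a Ctrl_8wk library, so their groups overlapped too. Wfdc2, a product of many epithelia, fell by 3.86 ± 1.35 (adjusted p = 0.0344) and Wfdc8 fell by 6.30 ± 2.13 (adjusted p = 0.0298).

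Spink2, an acrosomal protease inhibitor, had 0.174, 0.217, 0.126 and 0.436 CPM in Ctrl_20wk and 0.664, 1.25, 0.997 and 1.64 CPM in Ctrl_8wk. It fell by 2.25 ± 0.44 on the log2 scale (adjusted p = 0.00138), and was the one lower member whose groups did not overlap. Wfdc1, a secreted protein of stroma and smooth muscle, had 1.68 to 3.39 CPM in Ctrl_20wk and 2.68 to 10.7 CPM in Ctrl_8wk and fell by 1.48 ± 0.46 (adjusted p = 0.0207). Wfdc17, a macrophage product, had 17.8 to 32.4 CPM in Ctrl_20wk and 11.3 to 18.3 CPM in Ctrl_8wk and rose by 0.63 ± 0.24 (adjusted p = 0.0483). The macrophage list was 6626 to 11410 CPM in Ctrl_20wk and 1141 to 1875 CPM in Ctrl_8wk, and its part in Wfdc17 was not tested.

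Without OE_8wk 2, Ctrl_8wk 3 and Ctrl_8wk 4, a setting chosen after seeing the data, 2 members were called lower in Ctrl_20wk: Spink2 (-2.002 ± 0.53, adjusted p = 0.0143) and Wfdc21 (-0.76 ± 0.24, adjusted p = 0.0293). The calls of Akr1b7 (-2.99 ± 1.42, adjusted p = 0.126), Crisp1 (-3.36 ± 1.70, 0.150), Spink8 (-1.90 ± 1.79, 0.438) and Wfdc15b (-3.51 ± 2.23, 0.247) were lost there. Without Ctrl_8wk 4 alone, the log2 fold change was -3.44 ± 2.09 for Akr1b7 (adjusted p = 0.203), -6.39 ± 2.50 for Crisp1 (0.0570), -6.70 ± 2.69 for Spink8 (0.0625) and -7.27 ± 2.62 for Wfdc15b (0.0418). Without Ctrl_8wk 4 and OE_8wk 2, 10 were called lower, and without Ctrl_8wk 3 alone, 5. The count was 2 without Ctrl_20wk 2, 3 without Ctrl_20wk 3 and 21 without Ctrl_8wk 1, and limma voom called 2 lower, Spink2 and Wfdc1. Spink2 was called in all 26 alternatives run, Wfdc1 in 22 of 26 and Defb42 in 9 of 24. The higher call of Wfdc17 was kept in 10 of 26.

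In OE mice, 4 of 22 members were called lower at 20 than at 8 weeks, where 9.91% of all genes were lower, and 0 higher, where 13.1% were and 23.0% were called in either direction. The median log2 fold change was -2.12 over the 22 members and -0.03 over all genes. Akr1b7 fell by 10.99 ± 3.39 on the log2 scale (adjusted p = 0.0314), and its highest 20-week value of 1.14 CPM was under the lowest 8-week value of 1.39 CPM. Crisp1 fell by 9.78 ± 3.07 (0.0338), Spink8 fell by 8.47 ± 2.83 (0.0440) and Wfdc1 fell by 1.74 ± 0.46 (0.0150), with groups that overlapped. Without OE_8wk 2, Ctrl_8wk 3 and Ctrl_8wk 4, Akr1b7 (-4.23 ± 1.40, adjusted p = 0.0438) and Wfdc1 (-1.63 ± 0.48, adjusted p = 0.0276) were called. Without OE_8wk 2 alone, Akr1b7 had a log2 fold change of -4.23 ± 2.29 (adjusted p = 0.200), Crisp1 of -3.17 ± 2.06 (0.284) and Spink8 of -2.26 ± 2.39 (0.519). Of the 25 alternatives that gave an adjusted p for each gene, the call was lost in 8 for Akr1b7, which included each OE_20wk library left out in turn, in 11 for Crisp1 and in 15 for Spink8. Without OE_20wk 2 the count was 0, without OE_8wk 2, OE_20wk 3 or OE_20wk 4 it was 1, and without Ctrl_8wk 1 it was 7. OE_20wk and OE_8wk share no library with the Ctrl comparison. The difference between both comparisons of 20 with 8 weeks is the interaction given above.

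Some members resemble another gene in sequence or overlap a neighbour, and whether reads were shared was not tested. Transcripts at least 90% identical over at least 50% of the shorter one were found for Wfdc6a with Wfdc6b (92.1%) and Defb11 with Defb10 (90.3%), so their counts are uncertain. On opposite strands and by GENCODE genes, Akr1b7 overlaps Gm13857, Wfdc9 overlaps Wfdc10, Wfdc8 overlaps Wfdc6b, Wfdc3 overlaps Dnttip1 and Spink10 overlaps Spink13. Other such overlaps include Wfdc1 with Gm32352, Wfdc12 with A730032A03Rik and Defb14 with Gm39139. Defb36 lies with Gm14163 on the same strand.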

How the data were processed

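RNA from epididymal fat of 16 mice was sequenced as stranded mRNA libraries, per the labels' protocols. Reads came through bcl2fastq 2.20.0 and Trimmomatic to HISAT2 2.1.0 and StringTie 2.1.3b on mm10, per the submitters' processing notes. The strand setting and annotation release are not given in the sources used here. The deposited read counts, which StringTie derives from coverage, were tested as they were. The authors' TPM values gave ranks and levels per length, and the authors' FPKM values were not tested.

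Counts were fitted in R 4.3.3 with edgeR 4.0.16: filterByExpr at a minimum count of 10, TMM, and a robust quasi-likelihood fit of all 4 groups with 12 residual degrees of freedom. In each of 5 contrasts, Benjamini-Hochberg adjustment ran over 19189 genes, and an adjusted p under 0.05 was a call. P-values measure the spread between mice. Errors of fold changes are standard errors. CPM are TMM-scaled. DESeq2 1.42.0, limma voom 3.58.1, other scalings, no filter, a replicate block and left-out libraries were alternatives. On counts simulated for OE_8wk against Ctrl_8wk with 19189 genes, the fit recovered 54.7% of 2-fold and 65.7% of 4-fold changes, with 1.63% false calls. The 200 changed genes were drawn from all genes, so these rates are not those of the members. Akr1b7 and Crisp1 had standard errors of 2.17 and 2.05 on the log2 scale in the real data of this comparison. Genes were matched to RefSeq (GRCm38.p6) by gene ID, 63 of 63 members, and transcripts were compared with BLAST 2.17.0. Python 3.11.15 with matplotlib 3.10.9 made the plots.

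The members and lists were chosen with earlier results of these data known. Named are called members (up to 10 per contrast and direction), the 15 members highest in TPM, Akr1b7, the leader of each family, the 3 symbols on each side of the 10-read limit, 10 similar genes outside the families and up to 3 leading genes per list; other genes were named after their values were seen.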

Additional observations from a re-analysis of the deposited data

Results flagged for a closer look

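In groups of 4 libraries, a value was marked where its gap to the nearest other library was most of the group's range (Dixon's test at 95%), which chance does in about 1 of 20 groups. Of 55 groups examined, in named members and the epididymal sum where a library reached 1 CPM, 27 were marked. The families were picked with their spread over the libraries known, and many members were named for a high level in a library. Members also rose together in the same libraries. The 27 marks thus describe these values and cannot be set against that rate.

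OE_8wk 2 stood above the rest of OE_8wk in the epididymal sum (2853 CPM against 29.3 in the next library) and in Akr1b7 (4624), Crisp1 (2415), Spink8 (280), Defb42 (71.8), Defb43 (27.7), Wfdc15b (22.3), Spink11 (9.31), Wfdc10 (3.23), Defb2 (3.04), Defb28 (2.99), Rnase12 (1.67) and Lcn5 (1.16 CPM). Ctrl_8wk 4 stood above the rest of Ctrl_8wk in the epididymal sum (4267 CPM against 277 in the next library) and in Akr1b7 (7715), Crisp1 (3666), Spink8 (410), Defb42 (72.7), Defb43 (42.4), Spink11 (8.62), Defb2 (5.38) and Lcn5 (1.68 CPM). Ctrl_8wk 3 stood above the rest of Ctrl_8wk in Wfdc13 (10.8 CPM), Wfdc16 (9.68 CPM) and Defb22 (8.77 CPM). The macrophage gene Wfdc17 was also high in OE_8wk 2, at 28.5 CPM against 17.3 in the next library, where the macrophage list was the highest of that age at 2572 CPM. Spink2 was high in OE_8wk 3, at 1.21 CPM against 0.743. No 20-week library was marked in the members examined. Wfdc8 was not among them, and it had 1.15 CPM in OE_20wk 1 and no read in the rest of OE_20wk.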

How the results depend on the processing

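The 0 calls of OE against Ctrl and of the interaction were the same under every alternative run. Members called lower in Ctrl_20wk than in Ctrl_8wk, 14 in the fit reported, were 2 with limma voom, 5 with only the groups compared fitted and 2 without Ctrl_8wk 3, Ctrl_8wk 4 and OE_8wk 2, with 2 to 21 when single libraries were left out. The single higher call, Wfdc17, became 0 with relative log expression size factors and without the filter. It also became 0 without Ctrl_8wk 4 and OE_8wk 2 and without these and Ctrl_8wk 3. With single libraries left out, it was kept in 5 of 16 fits. Members called lower in OE_20wk than in OE_8wk, 4 in the fit reported, were 1 with limma voom or without the filter, 2 with only the groups compared, 2 without Ctrl_8wk 4 and OE_8wk 2, 2 without these and Ctrl_8wk 3, and 10 without OE_20wk 1, Ctrl_8wk 1 and OE_8wk 1, with 0 to 7 over single libraries. The cause was not tested. DESeq2 gave no adjusted p for Akr1b7 and Crisp1 in either age comparison or for Defb42 in that of Ctrl mice.

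Deviations of same-numbered libraries from their group means had correlations of -0.571 to 0.826, so the numbers were not taken to pair the mice. The highest, 0.826, was that of OE_8wk 1 with Ctrl_8wk 1, the 8-week libraries with the lowest epididymal sums. Its cause was not tested. With a replicate block, 7 members were called lower and 0 higher in Ctrl_20wk, and 2 lower in OE_20wk.

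OE against Ctrl at 8 weeks (log2 fold change) ran between -7.494 and 6.56 for Akr1b7, -7.264 and 3.595 for Crisp1, and -6.898 and 2.23 for Spink8 when single libraries were left out, the sign changing without Ctrl_8wk 4, and was 0.229 for Akr1b7 and 0.731 for Spink8 without Ctrl_8wk 3, Ctrl_8wk 4 and OE_8wk 2.

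The epididymal sum of OE_8wk 2 was 3097 CPM by library size alone, 5597 in TPM and 7554 CPM over all 63 members. For Ctrl_8wk 4 these were 4674, 8116 and 12040, and Ctrl_8wk 3 had 630.0 in TPM and 394 CPM over all members. The highest of the other 13 libraries had 68.9 in TPM and 139.5 CPM over all members. The order of these 3 libraries above the rest was the same on each scale. A member without reads may still be present below 0.0444 to 0.0892 CPM, the level of 3 reads.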
